A study of Mus musculus with 6 samples.

Results

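The 10 genes described here encode the proteins that prepare vesicles for fusion and hold the release site together: the CAPS genes *Cadps* and *Cadps2*, the Munc13 genes *Unc13a*, *Unc13b* and *Unc13c*, the RIM genes *Rims1*, *Rims2* and *Rims3*, and the ELKS genes *Erc1* and *Erc2*. They were found by gene name in the deposited transcript assembly, among 34632 loci in all, and where a name lay on several loci the locus with the most fragments was taken. All 10 passed the filter on low counts that left 21854 loci for testing. RNA was sequenced from the brainstem of mice at postnatal day 21 (P21), with 3 libraries per genotype and each library made from a pool of 3 brainstems. The libraries labelled *Hoxa5* cKO came from Hoxa5flox/flox;CMV-CreERT2+/- pups, in which tamoxifen activates a Cre recombinase that deletes the floxed *Hoxa5* gene. The libraries labelled *Hoxa5* control came from Hoxa5flox/flox;CMV-CreERT2-/- littermates without the Cre transgene. Pups of both genotypes carried the floxed alleles and were given tamoxifen from P1 to P4. The CMV promoter drives Cre broadly and not in a chosen cell type, so any *Hoxa5*-expressing cell could lose the gene. The comparison asks which transcripts change in the postnatal brainstem after *Hoxa5*, a homeobox transcription factor of the hindbrain, is lost.

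Neurons release transmitter at the active zone, a protein scaffold on the presynaptic membrane where vesicles dock and are primed. RIM proteins bind Rab3 on the vesicle, calcium channels and Munc13, ELKS proteins tie RIM to the rest of the scaffold, and Munc13 opens syntaxin so that the SNARE complex can form. CAPS proteins share a domain with Munc13 and act mainly on dense-core vesicles, which carry neuropeptides and neurotrophins. In mouse cerebellum, *Cadps2* is known for its abundance in granule neurons, where its product promotes release of brain-derived neurotrophic factor, and *Unc13c* (Munc13-3) is likewise known as a gene of granule neurons.

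In the CAPS and the ELKS pair, a gene called as lower can be set against its closest relative, and the bases just upstream of their RefSeq gene starts are shown for that reason. Each run holds the 250 bases before the gene start, 5′ to 3′ on the gene's own strand (RefSeq, GRCm38.p6, the assembly also called mm10), with every CpG in capitals. RefSeq entries were matched for 9 of the 10 genes, and *Rims2* had none in the table used.
*Cadps2* (chr6:23839422-23839671, minus strand): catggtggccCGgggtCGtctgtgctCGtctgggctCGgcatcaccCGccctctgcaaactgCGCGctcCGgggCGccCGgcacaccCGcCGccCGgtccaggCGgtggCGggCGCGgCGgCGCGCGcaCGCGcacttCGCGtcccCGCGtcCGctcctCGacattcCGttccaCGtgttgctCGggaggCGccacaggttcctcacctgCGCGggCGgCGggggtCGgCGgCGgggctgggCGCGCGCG
*Cadps* (chr14:12823080-12823329, minus strand): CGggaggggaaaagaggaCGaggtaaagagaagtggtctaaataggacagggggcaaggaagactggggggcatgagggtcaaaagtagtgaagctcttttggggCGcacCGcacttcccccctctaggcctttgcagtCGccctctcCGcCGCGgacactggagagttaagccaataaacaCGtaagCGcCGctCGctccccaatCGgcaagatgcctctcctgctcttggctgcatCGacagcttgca
*Erc1* (chr6:119848151-119848400, minus strand): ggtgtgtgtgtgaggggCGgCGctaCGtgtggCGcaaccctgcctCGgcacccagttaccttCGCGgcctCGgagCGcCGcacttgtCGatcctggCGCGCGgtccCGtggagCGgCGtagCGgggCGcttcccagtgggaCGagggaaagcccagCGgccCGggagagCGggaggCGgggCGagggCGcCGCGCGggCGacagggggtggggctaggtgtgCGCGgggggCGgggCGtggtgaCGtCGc
*Erc2* (chr14:27622157-27622406, plus strand): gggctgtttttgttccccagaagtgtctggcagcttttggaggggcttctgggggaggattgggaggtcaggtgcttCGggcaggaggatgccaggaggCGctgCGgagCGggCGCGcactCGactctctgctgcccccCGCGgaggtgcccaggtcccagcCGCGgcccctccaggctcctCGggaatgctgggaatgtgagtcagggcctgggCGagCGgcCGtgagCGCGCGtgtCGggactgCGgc
The *Cadps2* window held 44 CpG and 78% GC, and the *Cadps* window 14 CpG and 58% GC. The *Erc1* window held 36 CpG and 76% GC, and the *Erc2* window 20 CpG and 69.6% GC. The median over 32851 promoter windows of the same length was 6 CpG and 52.4% GC, and 99.5%, 70.6%, 97.4% and 82.1% of them held fewer CpG than the windows of *Cadps2*, *Cadps*, *Erc1* and *Erc2*. Both called genes therefore had the more CpG-rich window of their pair, which is a description of 4 windows and not a test. The *Cadps* locus of the assembly starts 395 bases farther upstream, so its window lies inside the locus. Short letter strings were looked for on both strands of the 9 windows. TAAT, the core letters of many homeodomain sites, was in the *Rims3* and *Unc13b* windows and in 54.9% of all windows. TGATTNAT, a string for Hox proteins paired with Pbx that can overlap TAAT, was in none of the 9 and in 2.82% of all windows. CAGATG, an E-box of the kind bound by proneural factors, was in the *Rims3* window and in 14.4% of all windows.

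*Cadps2* transcripts were also the target of a primer pair that the study designed for RT-qPCR, and its place in the gene shows which part of the transcript that assay reads. The forward primer lies within exon 3 of the GENCODE transcript Cadps2-212 and the reverse primer spans the junction of exons 3 and 4.
Forward primer: ttgtgcaaacagccgaacag
Reverse primer: ttatccagctggcatgcgtt
All bases of both primers lie in coding sequence and within the exons of the locus counted here, with the forward primer at chr6:23626611-23626630. The pair brackets 146 bases and was found in 9 of 13 annotated *Cadps2* transcripts and in 0 *Cadps* transcripts.

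The libraries held 12034613 to 13202707 fragments. The targeted gene could not be read alone, because the assembly joins *Hoxa5* with *Hoxa6* and the noncoding RNA 2700086A05Rik in a shared locus. That locus had 279, 57 and 63 fragments in the libraries labelled cKO and 202, 337 and 77 in those labelled control. Its log2 fold change, cKO over control, was -0.62 (standard error 0.48, adjusted p = 0.893 by edgeR). Against their labels, the cKO library numbered 1 was high at this locus and the control library numbered 3 was low. These counts cannot show whether *Hoxa5* itself was lost in a given library, so every direction rests on the labels. The replicate numbers are those of the deposited table, counted from 1, and are not tied to the numbers of the pools. Markers of brainstem neurons were present (9 of 10 passed the filter), whereas only 2 of 5 forebrain markers passed the filter. Markers of cerebellar granule neurons, Purkinje cells and Bergmann glia were detected in every library, and many of them were lower in the libraries labelled cKO. At an adjusted p under 0.05 by edgeR, 110 loci were lower (0.503% of those tested) and 6 higher (0.0275%) in the libraries labelled cKO, 0.531% together.

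*Cadps2* was the member that differed most. Its level, in fragments scaled to transcript length and library size (FPKM), was 11.4, 12.01 and 10.1 in cKO replicates 1, 2 and 3, against 20.3, 17.3 and 15.6 in control replicates 1, 2 and 3. All 3 cKO libraries lay below all 3 control libraries, and control replicate 1 was the highest of the 6. In whole fragments the locus had 640, 745 and 635 in the cKO libraries and 1196, 987 and 1001 in the controls. Scaled to library size alone (CPM) this was 53.6 ± 3.52 in cKO and 84.7 ± 11.8 CPM in control (SD, n = 3 each), a fold of 0.633. The log2 fold change was -0.66 (standard error, SE, 0.08, 95% interval -0.83 to -0.49, adjusted p = 6.76e-04 by edgeR's quasi-likelihood test). Without the libraries in which the shared *Hoxa5* locus went against the label, cKO replicate 1 and control replicate 3, *Cadps2* had a log2 fold change of -0.73 (adjusted p = 9.95e-05 by edgeR). This alternative was chosen after seeing the data. Control replicate 3 had the lowest *Cadps2* of the controls, so leaving it out widens the difference, to -0.74 when it alone is left out. The study selected *Cadps2* as a candidate from these same libraries, so its call here is not independent evidence. The gene lies on chromosome 6 from 23262607 to 23839421 (mm10, minus strand), and 29 of the 30 exons of Cadps2-212 fall within the counted locus. In RNA from whole tissue, fewer cells that express a gene and less of its RNA in each cell cannot be told apart. P-values here measure the spread between pools of 3 brainstems.

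Its paralog *Cadps*, which primes dense-core vesicles throughout the nervous system, had the highest level of the 10 genes and lies on chromosome 14 from 12372563 to 12823474 (mm10). It had 93.0, 89.2 and 88.5 FPKM in the cKO libraries, against 87.2, 88.3 and 89.4 FPKM in the controls. The groups overlapped. Its log2 fold change was 0.04 (95% interval -0.05 to 0.13, adjusted p = 0.928 by edgeR), and the lower end of that interval was a fall of 0.05 on the log2 scale. *Cadps2* accordingly took a smaller share of CAPS transcripts in the cKO libraries. Its share of the summed FPKM of the pair was 10.9%, 11.9% and 10.3% in the cKO libraries and 18.9%, 16.4% and 14.9% in the controls, or 11.0% ± 0.803 against 16.7% ± 2.03 (SD, n = 3 each). The groups did not overlap (two-sided exact permutation p = 0.1, the smallest that 3 against 3 can give, and 0.2 after adjustment over 10 such shares). In the CAPS and ELKS pairs the shares mirror each other and have the same p, so the 10 shares are not 10 separate tests.

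**Figure D1:**
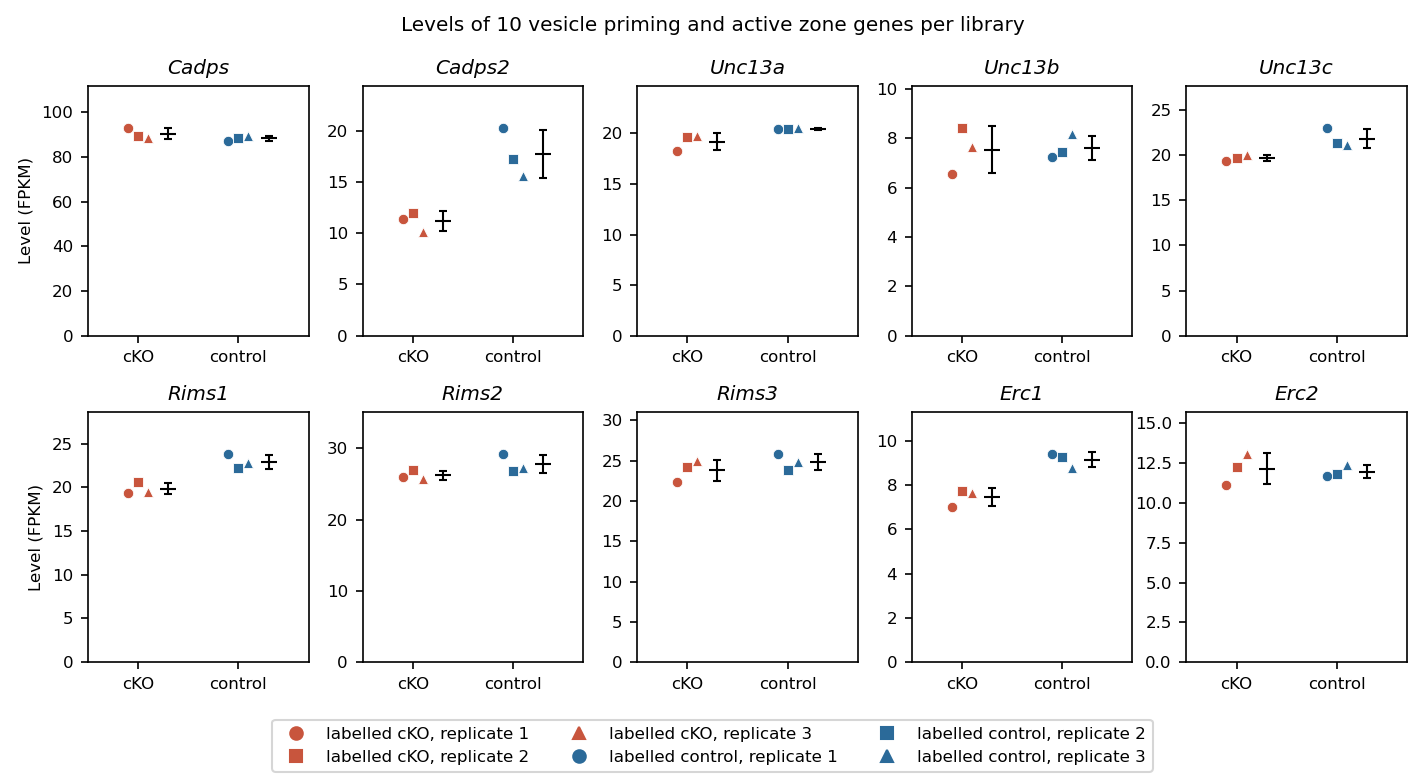
Level of each of the 10 genes (y axis, FPKM, from 0) in the libraries labelled cKO (left, red) and control (right, blue), 1 point per library with shape for the replicate number. Horizontal bars give the mean and error bars the SD of 3 libraries. *Cadps2* sits between 10.1 and 12.01 in the cKO libraries and between 15.6 and 20.3 in the controls, while *Cadps* lies between 87.2 and 93.0 in all 6.

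Among the ELKS genes, *Erc1* was lower and *Erc2* was not called. *Erc1* encodes ELKS1, a scaffold protein found at active zones and also at sites of vesicle delivery outside the nervous system. It had 7.00, 7.73 and 7.65 FPKM in the cKO libraries, against 9.39, 9.28 and 8.76 FPKM in the controls. The highest cKO library was below the lowest control. Its mean was 67.6 ± 4.46 CPM in cKO and 81.8 ± 3.24 CPM in control (SD, n = 3 each), a fold of 0.827 and a log2 fold change of -0.27 (SE 0.06, 95% interval -0.40 to -0.15, adjusted p = 0.0499 by edgeR). This call stands at the threshold: with any of the 6 libraries left out it was lost, at log2 fold changes of -0.31 to -0.22 and adjusted p of 0.0593 to 0.371 by edgeR. *Erc2*, which encodes CAST, an ELKS protein of brain active zones, had 11.1, 12.3 and 13.1 FPKM in the cKO libraries and 11.7, 11.8 and 12.4 FPKM in the controls. The cKO libraries enclosed the controls on both sides, and the log2 fold change was 0.03 (95% interval -0.10 to 0.16, adjusted p = 0.968 by edgeR). The share of *Erc1* in the summed FPKM of the pair was 38.6%, 38.6% and 36.9% in the cKO libraries and 44.5%, 44.0% and 41.4% in the controls. These shares did not overlap, with means of 38.1% ± 0.996 in cKO and 43.3% ± 1.68 in control (SD, n = 3 each, exact permutation p = 0.1, 0.2 after adjustment over 10 shares). *Erc1* lies on chromosome 6 from 119570199 to 119848150 and *Erc2* on chromosome 14 from 27622399 to 28478565 (mm10).

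**Figure D2:**
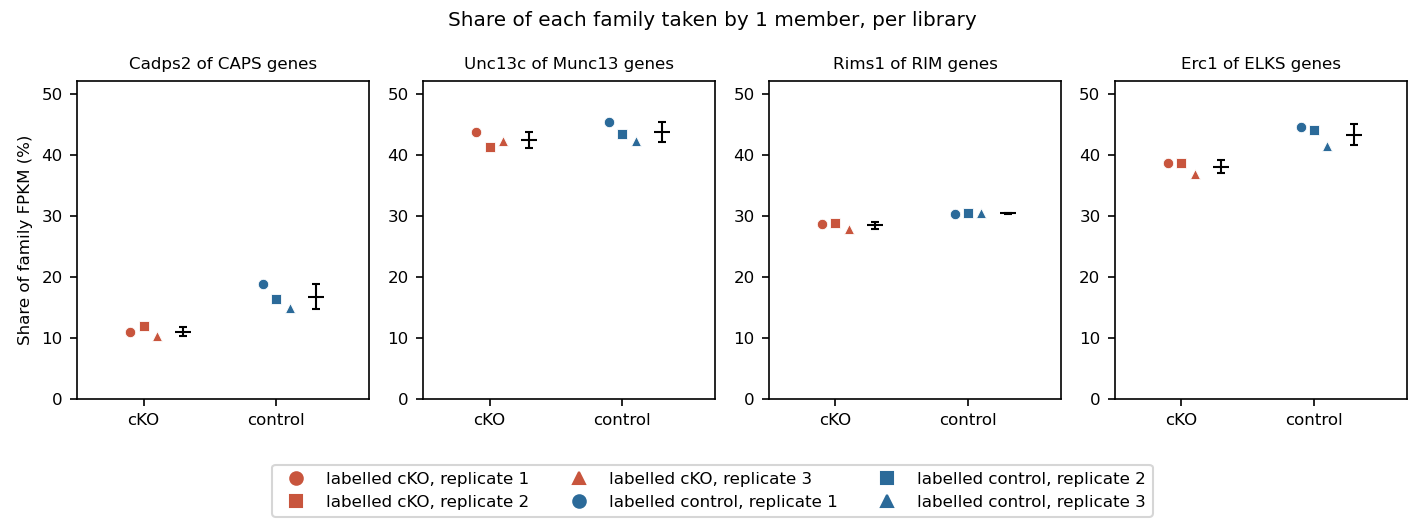
Share of 1 gene in the summed FPKM of its family (y axis, percent, from 0) in each library, with cKO libraries at the left (red) and controls at the right (blue) and the mean and SD of 3 libraries beside them. A family here holds only the members described, so *Rims4* and the 5′ locus of *Rims1* are not in the RIM sum. The *Cadps2* share was 10.3% to 11.9% in cKO and 14.9% to 18.9% in control libraries, and the *Unc13c* share was 41.2% to 43.8% in cKO and 42.3% to 45.4% in control libraries, which overlap.

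None of the RIM genes was called, although *Rims1* was lower in each cKO library than in each control. *Rims1* encodes RIM1, which binds Rab3 and Munc13 at the active zone. The assembly splits it into 2 loci on the minus strand of chromosome 1, a 3′ locus from 22285967 to 22433265 and a 5′ locus from 22466564 to 22806281. The 3′ locus, which has the most fragments and was taken by rule, had 19.4, 20.6 and 19.5 FPKM in the cKO libraries, against 23.8, 22.2 and 22.8 FPKM in the controls. Its log2 fold change was -0.19 (SE 0.05, unadjusted p = 0.00151 and adjusted p = 0.155 by edgeR). The 5′ locus was also lower in each cKO library, at 16.0, 16.1 and 15.9 FPKM in the cKO libraries and 19.2, 19.3 and 19.5 FPKM in the controls, its log2 fold change being -0.23 (SE 0.06, adjusted p = 0.137 by edgeR). With the fragments of both loci summed the log2 fold change was -0.20 (adjusted p = 0.0665 by edgeR), so *Rims1* stayed short of the threshold by either reading. Only 36.8% of the exonic bases of the 3′ locus and 57.8% of those of the 5′ locus lie in annotated exons. They touch 19 and 17 of the 37 exons of the annotated transcript with the longest coding sequence.

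*Rims2* and *Rims3* differed less. *Rims2*, which encodes the close relative RIM2, had 25.9, 26.9 and 25.8 FPKM in the cKO libraries and 29.2, 26.9 and 27.2 FPKM in the controls, a log2 fold change of -0.08 (SE 0.05, adjusted p = 0.833 by edgeR). Its groups met at 26.9 FPKM. *Rims3*, whose short product keeps only the C-terminal part of the RIM proteins, had 22.3, 24.2 and 24.9 FPKM in the cKO libraries and 25.8, 23.8 and 24.8 FPKM in the controls. The groups overlapped for *Rims3*, its log2 fold change being -0.07 (SE 0.06, adjusted p = 0.900 by edgeR), with -0.0069 without cKO replicate 1 and -0.034 without control replicate 1. The longest annotated coding sequence of *Rims3* has 307 codons, against 1424 for *Rims1* and 1572 for *Rims2*. *Rims2* lies on chromosome 15 from 39197556 to 39684372 and *Rims3* on chromosome 4 from 120854781 to 120896650 (mm10). The share of *Rims1* was taken in the summed FPKM of its 3′ locus, *Rims2* and *Rims3*. It was 28.7%, 28.7% and 27.8% in the cKO libraries and 30.2%, 30.4% and 30.5% in the controls (exact permutation p = 0.1, 0.2 after adjustment over 10 shares). The 5′ locus of *Rims1* and *Rims4*, a RIM gene listed with the active zone scaffolds, were not in this sum.

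All 3 Munc13 genes had log2 fold changes a little below 0, and none was called. *Unc13c* had 19.3, 19.7 and 20.0 FPKM in the cKO libraries, against 23.0, 21.3 and 21.1 FPKM in the controls. The groups did not overlap, and control replicate 1 was again the highest library. The log2 fold change was -0.14 (SE 0.05, unadjusted p = 0.00831 and adjusted p = 0.405 by edgeR). *Unc13a*, which encodes Munc13-1, the main Munc13 of most excitatory synapses, had 18.2, 19.6 and 19.7 FPKM in the cKO libraries, against 20.4, 20.4 and 20.6 FPKM in the controls. Its groups parted completely but by a margin smaller than the spread among cKO libraries, its log2 fold change being -0.10 (SE 0.05, adjusted p = 0.776 by edgeR) and -0.045 without cKO replicate 1. On chromosome 8, 1880 exonic bases of *Unc13a* lie under *Glt25d1* on the opposite strand, a locus with a mean of 531 fragments. The libraries were made with a stranded kit, but whether the counting used strand is not given in the sources used here, so a part of the *Unc13a* count may be shared. *Unc13b*, which encodes Munc13-2, had 6.57, 8.44 and 7.64 FPKM in the cKO libraries and 7.23, 7.46 and 8.17 FPKM in the controls. These values overlapped, its log2 fold change being -0.06 (SE 0.09, 95% interval -0.24 to 0.12, adjusted p = 0.946 by edgeR). The counted *Unc13b* locus holds 4803 of the 13170 coding bases of its longest annotated transcript, Unc13b-215, so that long form is read only in part. In mm10, *Unc13a* lies on chromosome 8 from 71624838 to 71671762, *Unc13b* on chromosome 4 from 43058967 to 43265343, and *Unc13c* on chromosome 9 from 73479372 to 73969161.

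**Figure D3:**
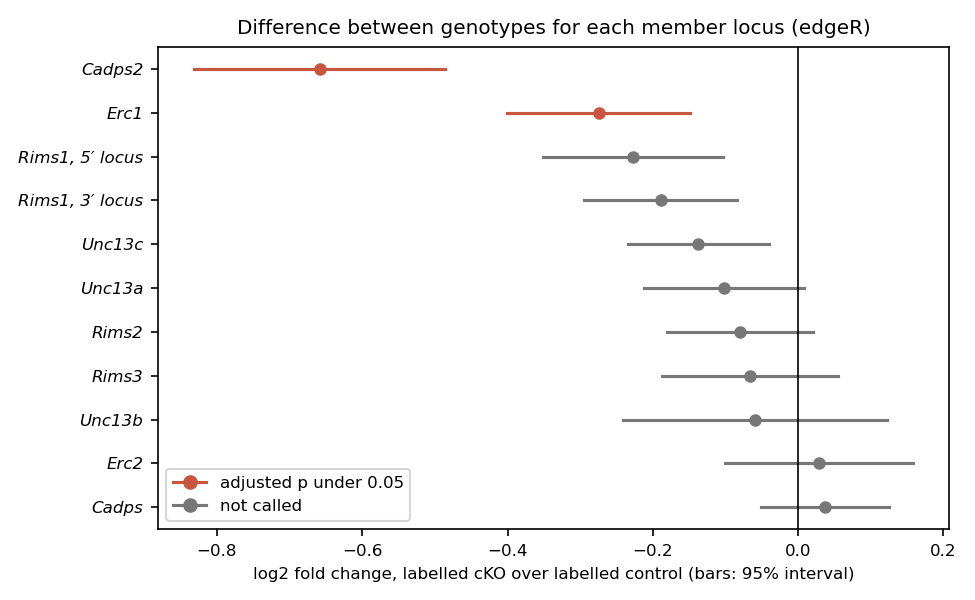
Log2 fold change of the libraries labelled cKO over those labelled control (x axis) for each gene, with both *Rims1* loci, from the largest fall at the top. Points are edgeR estimates and bars their 95% intervals, in red where the adjusted p is under 0.05. *Cadps2* (-0.66) stands apart from *Erc1* (-0.27) and from the others, which lie between -0.23 and 0.04.

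Over the 10 genes, 2 were lower in the cKO libraries and 0 were higher at an adjusted p under 0.05 by edgeR, beside 0.503% and 0.0275% of all loci tested. At an unadjusted p under 0.05, 4 were lower (*Cadps2*, *Erc1*, *Rims1* and *Unc13c*) and 0 higher, beside 4.03% and 2.91% of all loci. In CPM, 6 genes were lower in every cKO library than in every control and 0 were higher, these 4 together with *Unc13a* and *Rims2*, where 6.54% and 5.61% of all loci parted in these ways. The median log2 fold change was -0.09 for the 10 genes and 0.0034 for all tested loci, and 8 of the 10 lay below 0, as did 48.6% of all loci. These counts describe a list chosen with results of these data known. By DESeq2, where 0.523% of loci were lower, the called members were also *Cadps2* and *Erc1*. Without cKO replicate 1 and control replicate 3, where the shared *Hoxa5* locus went against the labels, 1 member was called, *Cadps2*. This alternative was chosen after seeing the data.

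By level per length, the 10 genes fell in the order *Cadps* (mean of 6 libraries 89.3 FPKM), *Rims2* (27.0), *Rims3* (24.3), *Rims1* (21.4), *Unc13c* (20.7), *Unc13a* (19.8), *Cadps2* (14.4), *Erc2* (12.1), *Erc1* (8.30) and *Unc13b* (7.58 FPKM). Most neighbours kept this order in all 6 libraries. *Rims1* was above *Unc13c* in 5 of 6 libraries, *Cadps2* above *Erc2* in 4 of 6, and *Erc1* above *Unc13b* in 5 of 6, so these pairs cannot be ranked beyond their spread. *Cadps2* averaged 11.2 ± 0.953 FPKM in cKO, below the 12.2 ± 0.984 FPKM of *Erc2*, and 17.7 ± 2.38 FPKM in control, above the 11.98 ± 0.382 FPKM of *Erc2* (SD, n = 3 each). The spread of *Cadps2* was also wider than that of most members in the controls, with a coefficient of variation in CPM of 6.57% in cKO and 13.9% in control libraries. *Unc13a* varied the other way, by 7.09% in cKO and 1.30% in control libraries.

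Many markers of granule neurons, Purkinje cells and Bergmann glia were lower in the cKO libraries, as *Cadps2* was. Cerebellar cells did not all share this, since 0 of 4 cerebellar interneuron markers were called, with a median log2 fold change of -0.09. Of 9 granule neuron markers tested, 6 were lower at an adjusted p under 0.05 by edgeR and 0 higher, with a median log2 fold change of -1.78, and none was at 0 in any library. The GABA-A receptor subunit gene *Gabra6*, a defining gene of mature granule neurons, had 14.8 ± 3.3 CPM in cKO and 57.0 ± 20 CPM in control libraries (SD, n = 3 each). The mean of the granule markers on the log2 CPM scale was 2.61, 2.80 and 2.40 in cKO replicates 1, 2 and 3 and 4.53, 4.19 and 3.60 in control replicates 1, 2 and 3. Their summed level was 118 to 148 CPM in cKO libraries and 302 to 587 CPM in control libraries. Within each genotype the library with the most *Cadps2* also had the highest marker mean, cKO replicate 2 and control replicate 1, and the library with the least had the lowest, cKO replicate 3 and control replicate 3. *Erc1* and *Unc13c* kept this order among the controls. The 3′ locus of *Rims1* kept it among the cKO libraries in CPM (104.1, 107.9 and 103.6), with replicates 1 and 3 nearly equal. In FPKM that locus was lowest in cKO replicate 1. The 5′ locus kept the order among the cKO libraries in FPKM but not in CPM, so for *Rims1* the order depends on the measure. In the other genotype these genes did not keep it. *Unc13c* was highest among the cKO libraries in replicate 3, and *Erc1* was lowest among them in replicate 1. The 3′ locus of *Rims1* was lowest among the controls in replicate 2. Such an order rests on 3 libraries per genotype. Purkinje cell markers had a mean of 2.87, 2.97 and 2.70 in cKO and 4.20, 3.61 and 3.60 in control libraries, with 5 of 7 called lower, 0 higher, and a summed level of 97.3 to 109 CPM in cKO and 171 to 273 CPM in control. Their means followed the same order of libraries as *Cadps2*, although control replicates 2 and 3 were nearly equal. The order is therefore not particular to the granule markers. Bergmann glia markers had a mean of 5.51, 5.38 and 5.29 in cKO and 5.90, 5.82 and 5.66 in control libraries, with 3 of 5 called lower, 0 higher, and a summed level of 498 to 543 CPM in cKO and 576 to 654 CPM in control. They kept the order among the controls, but cKO replicate 1 was the highest cKO library. The part of these cells in the levels of *Cadps2*, *Erc1*, *Rims1* and *Unc13c* was not tested.

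**Figure D4:**
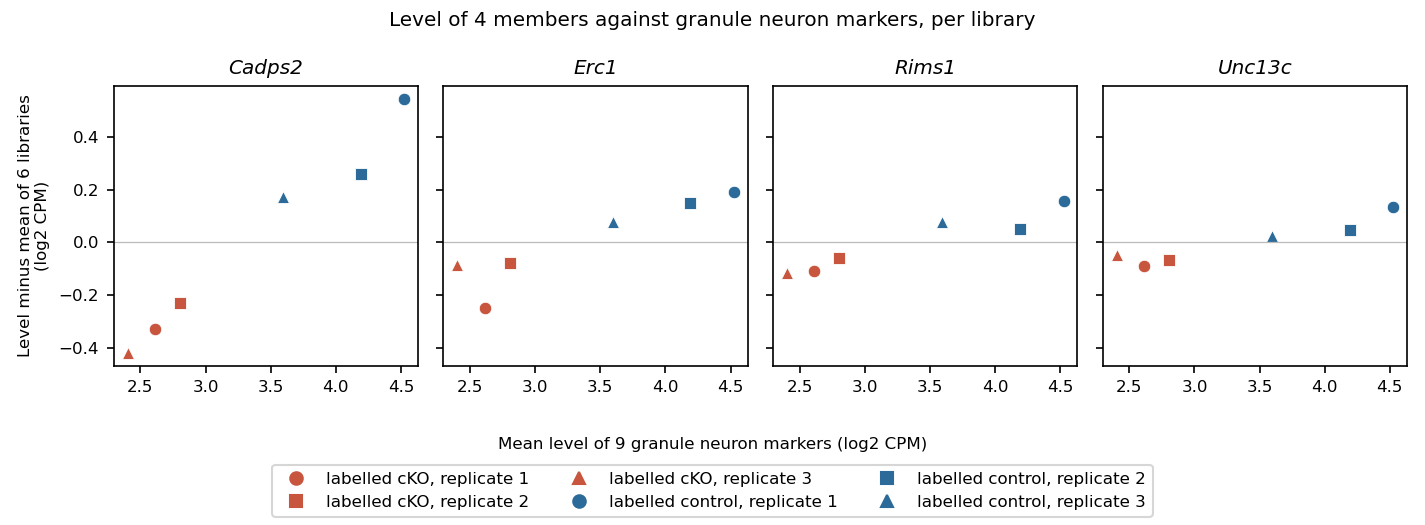
Level of *Cadps2*, *Erc1*, *Rims1* and *Unc13c* (y axis, log2 CPM minus the gene's mean over 6 libraries) against the mean of 9 granule neuron markers (x axis, in log2 CPM), a point for each library, cKO in red and control in blue. The cKO libraries lie between 2.40 and 2.80 on the x axis and the controls between 3.60 and 4.53, and *Cadps2* runs from -0.42 in cKO replicate 3 to 0.55 in control replicate 1.

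The other cell type lists moved little. Of 9 brainstem neuron markers tested 0 were called, with a median log2 fold change of 0.09, and 0 were called among 4 markers of cerebellar interneurons, 2 of forebrain neurons, 4 of astrocytes, 5 of oligodendrocytes, 2 of oligodendrocyte precursors and 4 of microglia. Of 5 general neuron genes 1 was called, *Rbfox3*, which encodes the neuronal nuclear protein NeuN, with 67.3 ± 3.2 CPM in cKO and 82.6 ± 2.6 CPM in control libraries (log2 fold change -0.30, adjusted p = 0.0205 by edgeR). *Snap25*, a SNARE of neuronal terminals in general, had a log2 fold change of 0.04 (adjusted p = 0.909 by edgeR).

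The genes whose profiles over the 6 libraries were most like those of *Cadps2* and *Erc1* were listed for each. Likeness was measured as the root-mean-square difference of log2 CPM, each gene centred on its own mean, over 14877 named loci. This measure keeps the size of a change, and *Cadps2* and *Erc1* were themselves 0.219 apart. That the lists share no gene therefore follows from their unlike fold changes. Nearest to *Cadps2* were 1520402A15Rik (0.0567), *Calb1* (0.0675), *Afap1l2* (0.0698), *St8sia5* (0.0700) and *Arhgap10* (0.0704). *Calb1* encodes calbindin, a calcium-binding protein abundant in Purkinje cells, and had a log2 fold change of -0.69 (adjusted p = 0.00309 by edgeR). Nearest to *Erc1* were *Rbfox3* (0.0245), *Btbd3* (0.0282), *Spice1* (0.0330), *Pcca* (0.0336) and *Kirrel3* (0.0359). Of the other members, *Erc1* was the nearest to *Cadps2*, at rank 286, and *Rims1* the nearest to *Erc1*, at rank 109. Both profiles are descriptions over 6 libraries, and the points share the split by genotype.

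The other listed genes of the release machinery were not called. The lists are a chosen part of that machinery and hold, for example, no synaptotagmins or complexins. Of 54 genes on 5 lists 53 were tested, and 0 were lower or higher at an adjusted p under 0.05 by edgeR. Over all loci tested 0.503% were lower and 0.0275% higher. A count of 0 among 53 genes is near these shares and does not set the lists apart. At an unadjusted p under 0.05, 5 were lower and 1 was higher, beside 4.03% and 2.91% of all loci. The median log2 fold change was 0.01, beside 0.0034 for all loci. DESeq2 also called 0 of them. So did limma, but its 2 fits called only 0 and 1 loci in all, so they add nothing here. None of the lists had a median beyond 0.10 on the log2 scale in either direction.

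Active zone scaffolds, which include bassoon, piccolo and the liprins, had a median log2 fold change of -0.07 over 12 genes. *Ppfia4*, which encodes liprin-α4, had 127 ± 8.62 CPM in cKO and 146 ± 8.69 CPM in control libraries (log2 fold change -0.20, adjusted p = 0.247 by edgeR). *Ppfia1*, another liprin gene, had a log2 fold change of -0.15 (adjusted p = 0.505 by edgeR), and *Ctbp2*, whose locus also encodes the ribbon protein RIBEYE, one of -0.13 (adjusted p = 0.776 by edgeR).

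The 12 genes of Rab3, the vesicle GTPase that RIM binds, and of its partners had a median of -0.0024. *Rab3d*, a form best known from secretory cells, had 4.29 ± 0.601 CPM in cKO and 5.71 ± 0.244 CPM in control libraries (log2 fold change -0.41, adjusted p = 0.583 by edgeR). *Madd*, an exchange factor for Rab3, had a log2 fold change of -0.10, and *Rab27b*, a GTPase of secretory vesicles, one of 0.10. Neither was called (adjusted p = 0.746 and 0.850 by edgeR).

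The 13 genes of SNAREs, Munc18 and their recycling factors had a median of 0.02. *Napb*, a SNAP that helps to take SNARE complexes apart, had 577 ± 4.68 CPM in cKO and 540 ± 8.23 CPM in control libraries (log2 fold change 0.10, adjusted p = 0.638 by edgeR). *Stxbp5l*, a tomosyn gene whose locus is joined with *Polq* in the assembly, had a log2 fold change of -0.09 (adjusted p = 0.688 by edgeR). *Vamp1*, the synaptobrevin of brainstem and spinal cord, had one of 0.08 (adjusted p = 0.773 by edgeR).

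The 4 other priming factors had a median of -0.10. *Doc2b*, a calcium sensor that binds Munc13, had 15.2 ± 1.78 CPM in cKO and 18.5 ± 1.96 CPM in control libraries (log2 fold change -0.29, adjusted p = 0.554 by edgeR). *Baiap3*, a Munc13-related gene for dense-core vesicle traffic, had a log2 fold change of 0.10 (adjusted p = 0.810 by edgeR), and *Unc13d*, the Munc13 of blood cells, one of -0.42 at 1.09 ± 0.219 CPM in cKO and 1.47 ± 0.571 CPM in control libraries (adjusted p = 0.899 by edgeR).

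The cargo and membrane genes of dense-core vesicles, on which CAPS proteins act, had a median of 0.04 over 12 genes tested, and the neurotrophin gene *Ntf3* did not pass the filter. *Scg2*, the secretogranin II gene, had 408 ± 21.2 CPM in cKO and 387 ± 13.02 CPM in control libraries (log2 fold change 0.08, adjusted p = 0.852 by edgeR). *Vgf*, a precursor of secreted peptides, had a log2 fold change of 0.09 (adjusted p = 0.860 by edgeR), and *Ptprn2*, a membrane protein of these vesicles, one of 0.06 (adjusted p = 0.876 by edgeR).

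**Figure D5:**
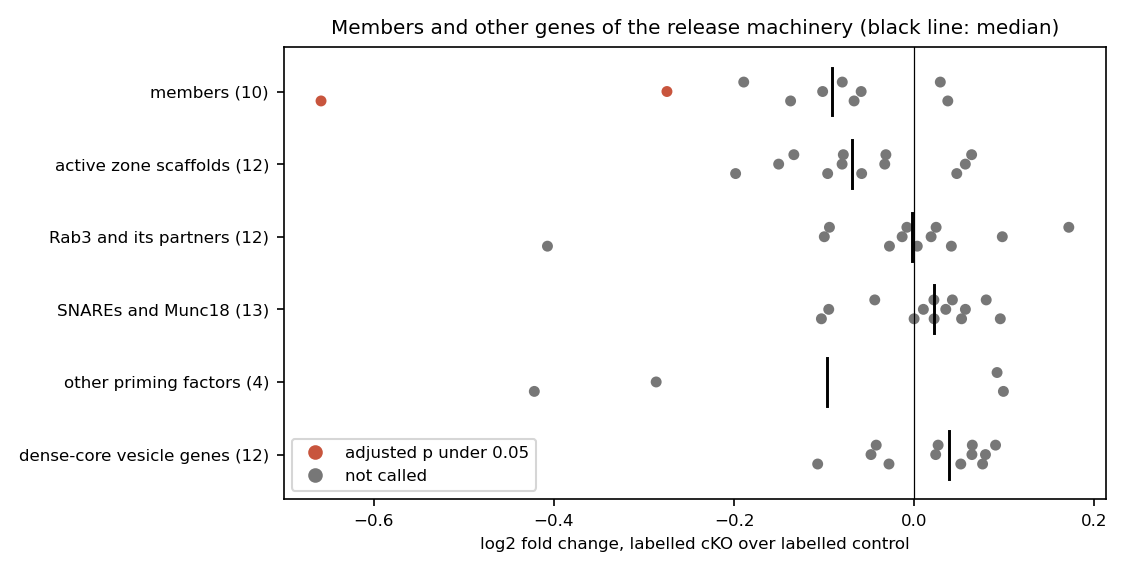
Log2 fold change of the libraries labelled cKO over those labelled control (x axis) for the 10 members (top) and the 53 tested genes of 5 other lists, 1 point per gene, with a black line at each list's median and red for an adjusted p under 0.05. The red points, at -0.66 and -0.27, belong to *Cadps2* and *Erc1*, and 0 of the other genes were called, beside 0.531% of all loci.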

How the data were processed

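Libraries were made from total RNA with a stranded kit after ribosomal depletion. The authors called bases with CASAVA 1.6, used TopHat2 2.0.9 for alignment to mm10 and Cufflinks 2.2.0 for assembly and merging, and counted loci with Cuffdiff. The deposited table gives whole-number fragment counts per locus and library, not normalized, and FPKM that Cuffdiff scaled between libraries for depth and locus length. Its scaled fragments, a signal the authors derived from the counts, were not used. 0 columns of the table were left unassigned. Gene names and exon coordinates came from the deposited assembly, and exon matches from the GENCODE M21 annotation.

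Counts of the 6 libraries (3 per genotype, 12034613 to 13202707 fragments) were filtered with filterByExpr, scaled by TMM and compared by the quasi-likelihood test of edgeR 4.0.16 in R 4.3.3 without a block, two-sided, with Benjamini-Hochberg adjustment over 21854 loci. The common coefficient of biological variation was 0.0552. Counting error is not part of it and weighs most on loci with few fragments, where small changes are hard to see. CPM use library sizes scaled by TMM, and log2 CPM a prior count of 2. Alternatives used DESeq2 1.42.0, limma 3.58.1 with a trend on log2(FPKM + 1) or log2(FPKM + 0.1) where 3 libraries reach 1 FPKM, RLE or upper-quartile factors or library size alone, no filter or at least 50 fragments in 3 libraries, each library left out, the replicate number as a block, and fragments summed over all loci of a name. Exact permutation tests and shares were computed in Python 3.11.15. The fits were tested on simulated data.

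The members and lists were chosen with earlier results of these data known. Genes named are the 10 members, *Hoxa5*, of each list of release genes those called or else the 3 with the smallest p, up to 3 examples of a marker list, and the 5 loci nearest in profile to each called member. *Rbfox3* and *Snap25* stand as examples of marker lists. *Rims4* is named because the RIM shares leave it out. *Ptchd4*, an interneuron marker, was not matched to a locus.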

Additional observations from a re-analysis of the deposited data

How the results depend on the processing

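*Cadps2* kept its direction and its call in 15 of 17 alternatives. With any 1 library left out its log2 fold change was -0.74 to -0.54 (adjusted p = 1.90e-04 to 0.00583 by edgeR). By limma it was -0.62 with a pseudocount of 1 (adjusted p = 0.318, unadjusted 4.97e-04) and -0.66 with 0.1 (adjusted p = 0.358, unadjusted 5.04e-04), where only 0 and 1 loci were called in all, with 1298 and 1271 at an unadjusted p under 0.05. *Erc1* was called in 5 of 17 alternatives. Its call was lost with upper-quartile factors (-0.26, adjusted p = 0.0692 by edgeR), with at least 50 fragments in 3 libraries (-0.27, 0.0677), by limma (-0.26 and -0.29, 0.463 and 0.471), with the replicate number as a block (-0.28, 0.0592), and without cKO replicate 1 and control replicate 3 (-0.25, 0.0760), an alternative chosen after seeing the data. With 1 library left out it was -0.31 to -0.22. The members called were then 1 in place of 2 in all of these settings but limma, where they were 0, and 1 with any library left out. The median over members was -0.13 to -0.06 with 1 library left out, and 0 of the other release genes were called in any of 16 alternatives. The loci called, 116, became 221 without a filter, 76 with at least 50 fragments in 3 libraries, and 44 to 126 with 1 library left out, with 44 without control replicate 1 (43 of them among the 116) and 65 without cKO replicate 3 (60 among the 116), and 161 without cKO replicate 1 and control replicate 3. Small differences changed sign: *Erc2* was -0.031 without cKO replicate 3 and 0.12 without both libraries named above, and *Unc13b* was 0.037 without cKO replicate 1, 0.011 without control replicate 3, 0.11 without both and -0.15 without cKO replicate 2. Without cKO replicate 1, and without it and control replicate 3, *Unc13a* was -0.045 and -0.038 in place of -0.10, and *Rims3* -0.0069 and -0.0042 in place of -0.067. The cause of these shifts was not tested. With the block 130 loci were called, 112 of them among the 116, and 1 of 2 members. Deviations of same-numbered libraries had r = 0.03, -0.08 and 0.05 over 21854 loci. Those of differently numbered libraries had r from -0.11 to 0.07. No pairing by number was seen, but with 3 libraries per genotype this check cannot exclude a pairing. Where a genotype kept 2 libraries, it was assumed to vary like the other. Other scalings moved the median of all loci by at most 0.0125 on the log2 scale. At 498 to 6647 fragments per member and library, counting error weighs most on *Unc13b*, which had the fewest, and the 95% intervals of the members not called reach from -0.30 (*Rims1*) to 0.16 (*Erc2*).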
